A study of Mus musculus with 12 samples.

Results

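The genes described here belong to 18 families of transcription factors that lay out the embryonic body and brain: the Hoxa, Hoxb, Hoxc and Hoxd clusters, Nkx, Lhx, Pax, Pitx, Tbx, Sox, Gata, Zic, Dlx, Msx, Irx and Fox, the family of Six2 and Six4, and the single gene Hlx. They were taken from the deposited table by gene symbol alone, with opposite-strand transcripts left out, and no measured value entered the choice. The rule found 63 of the 5764 genes of the table. By the same symbol rule the RefSeq annotation of GRCm38.p6 lists 185 genes; those outside the table are not analysed here. All 63 carry the biotype protein coding in that annotation.

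The RNA came from hypothalamic tissue enriched for the arcuate nucleus of POMCRiboTag mice, in which ribosomes of pro-opiomelanocortin (POMC) neurons carry an HA tag and are pulled down with an antibody against it. All mice of both groups had fasted for 16 h with water at hand and had spent 1 h in the test room. For 10 min around zeitgeber time 6 h, a mesh cage with wooden pieces the size of food pellets (NEO) or with chow within sight and smell only (SENS) stood in the home cage. Each group had 6 libraries. Mice lived in pairs or triplets, and nothing in the labels ties a library to an animal, so the p-values speak of the spread among libraries, part of which may be technical. Not given in the sources used here were the age of the mice and the promoter behind the tag. Input RNA and untagged mice are not analysed here, so RNA of POMC neurons and RNA carried along from other cells cannot be told apart, nor can fewer cells of a type and less RNA per cell. Of the 15 genes fixed as markers of POMC neurons none has a value analysed here, so the labelled cell type could not be checked.

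Most of these families share the homeodomain, a fold that reads short AT-rich DNA motifs. Lhx proteins add LIM domains to it. Pax proteins bind by a paired domain, which some of them join to a homeodomain and others, such as Pax1 and Pax9, do not. Tbx proteins bind DNA by a T-box, Sox proteins by an HMG box, Gata and Zic proteins by zinc fingers, and Fox proteins by a forkhead domain. In the embryo, members of these families divide the forebrain into territories and assign neuron types, and in the adult many remain switched on in a few cell types and are silent elsewhere. Hox genes are best known from hindbrain, spinal cord and trunk, while Lhx, Nkx, Pitx and Tbx genes have known roles in forebrain and pituitary.

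The values are CPM, a gene's reads scaled to the same total in each library, here the total over the genes of the table. Library totals recovered from the values lay between 6901 (NEO 5) and 18299 (SENS 6) reads, and a gene with 1 read stood at 54.6 CPM in the deepest and 145 CPM in the shallowest library. The NEO libraries held 8509 ± 1749 reads and the SENS libraries 13104 ± 3466 (SD, n = 6 each). A count of 0 allows up to 3 reads, which is 58.8 CPM over the NEO group and 38.2 CPM over the SENS group. Such limits cover counting error only, since reads were not marked by molecular identifiers. A level set against such a limit takes the observed reads without their own counting error. The ratio is therefore not a lower bound on a difference between the groups.

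The family genes were sparse. Of the 63, 11 had no read in any library (Dlx3, Foxh1, Foxi2, Gata1, Gata5, Hoxa7, Hoxc9, Hoxd4, Lhx4, Pax1 and Pax2), or 17.5%, against 10.8% of all genes of the table. None was above 0 in all 12 libraries, and 13 were above 0 in at least 6. The median was 4 reads over the 12 libraries, against 9 for all genes. No gene of the table had more than 171 reads over the 12 libraries, so only genes of low counts are described. Among the 26 family genes with at least 10 reads, 13 (50.0%) had over 50.0% of them in 1 library, against 25.9% of the genes of the table with as many reads. The 52 genes above 0 were tested, each having a mean of at least 1 CPM; the other 11 could not be.

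**Figure D1:**
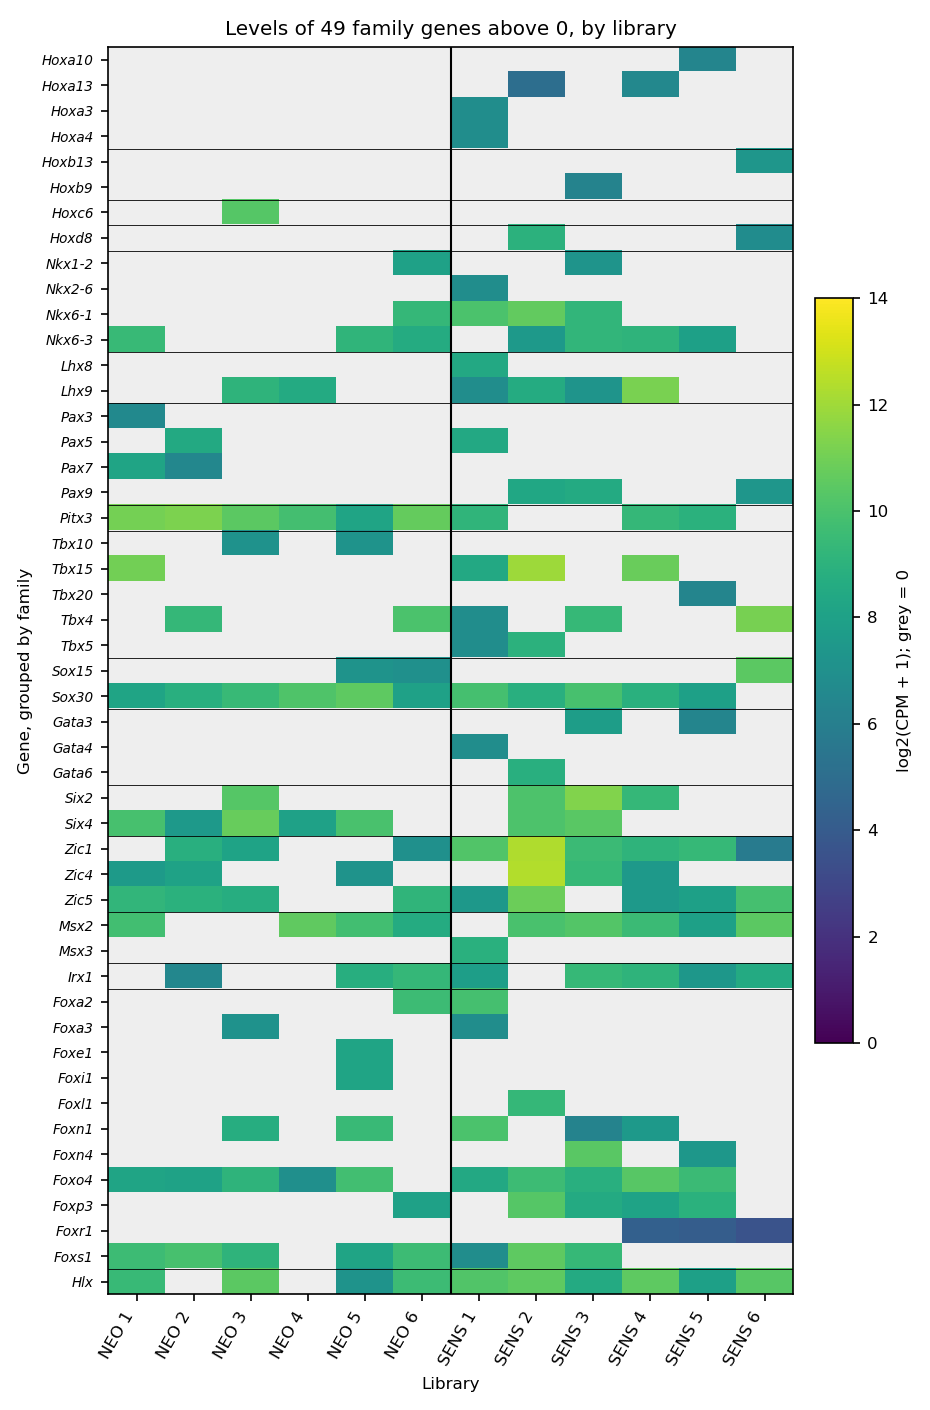
Each row is 1 of 49 of the 52 family genes above 0 and each column 1 library; colour gives log2(CPM + 1), grey is a value of 0, and lines part the families and the groups. Pitx3 and Sox30 fill all 6 NEO columns, Zic1 and Hlx fill all 6 SENS columns, and the brightest cells are Zic1 and Zic4 in SENS 2.

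More family genes were above 0 in SENS libraries than in NEO libraries, and the ranges overlapped. NEO libraries had between 6 (NEO 4) and 16 (NEO 5) family genes above 0, with a mean of 12.7 ± 3.56. SENS libraries had between 11 (SENS 6) and 25 (SENS 1), with a mean of 19.3 ± 5.09 (SD, n = 6 each). The SENS libraries also held more reads. With every library reduced to 6000 reads, the expected numbers were 12.0 ± 3.53 and 16.5 ± 5.23. SENS 1, with 8619 reads the smallest SENS library, had the most family genes above 0, and SENS 6, with 18299 reads the largest of the 12, had fewer than all NEO libraries except NEO 4. Over all genes of the table SENS 6 also had the fewest above 0 of the SENS libraries (1589) and NEO 4 the fewest of the NEO libraries (1419), with means of 1894 ± 327.5 in NEO and 2137 ± 299.9 in SENS. A difference between the families and all genes in this respect was not tested.

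**Figure D2:**
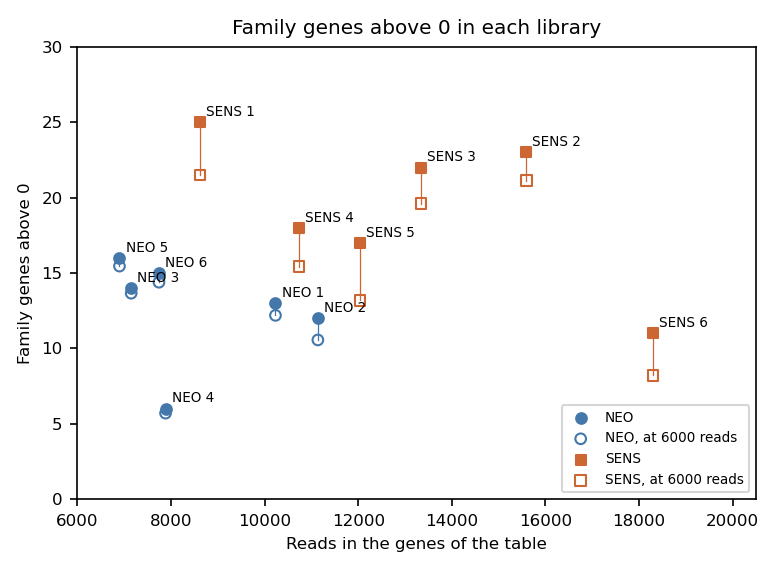
Filled symbols give the number of family genes above 0 in a library against its reads in the genes of the table; open symbols joined to them give the number expected at 6000 reads. SENS 1 stands highest at 25 and NEO 4 lowest at 6.

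The comparison of SENS with NEO asks which of these genes differed in ribosome-bound RNA between mice that sensed food and mice that sensed wood. Limma, fitted on log2(CPM + 1) over all genes, called none of the 52: 0 of 5141 genes passed at a Benjamini-Hochberg adjusted p under 0.05 (0% called), and the smallest adjusted p among family genes was 0.728. At an unadjusted p under 0.05 there were 3 family genes, Zic1 and Hlx with higher and Pitx3 with lower values in SENS. That is 5.77% of those tested, near the 3.68% of all genes tested (1.83% higher and 1.85% lower). The exact permutation test over all regroupings of the 12 libraries left 2 of the 3, Zic1 and Pitx3, at an unadjusted p under 0.05. Its 0 called does not bear on the limma result, because the limited number of regroupings sets a floor under its p. With adjustment over 5141 genes, a call would need many genes at that floor. No family gene had groups that did not overlap, against 0.0973% of all genes tested.

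The fitted log2 fold change was above 0 for 38 of the 52 genes (73.1%), with a median of 1.14. Over all genes tested it was above 0 for 57.0%, with a median of 0.39. Fold changes here are on the log2(CPM + 1) scale, where a gene with a library at 0 depends strongly on the pseudocount: the family median was 1.70 with a pseudocount of 0.1 and 0.23 with 100. The median SE of a family gene was 1.64. For Nkx6-3 and Sox15 the sign of the fit was opposite to that of the difference in mean CPM. Of the 52 genes, 21 had no read in NEO and 6 no read in SENS, or 40.4% and 11.5%, against 22.7% and 10.3% of all genes above 0. The NEO libraries also held fewer reads (51054 in all, against 78624 in SENS), whose part in these counts was not tested.

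**Figure D3:**
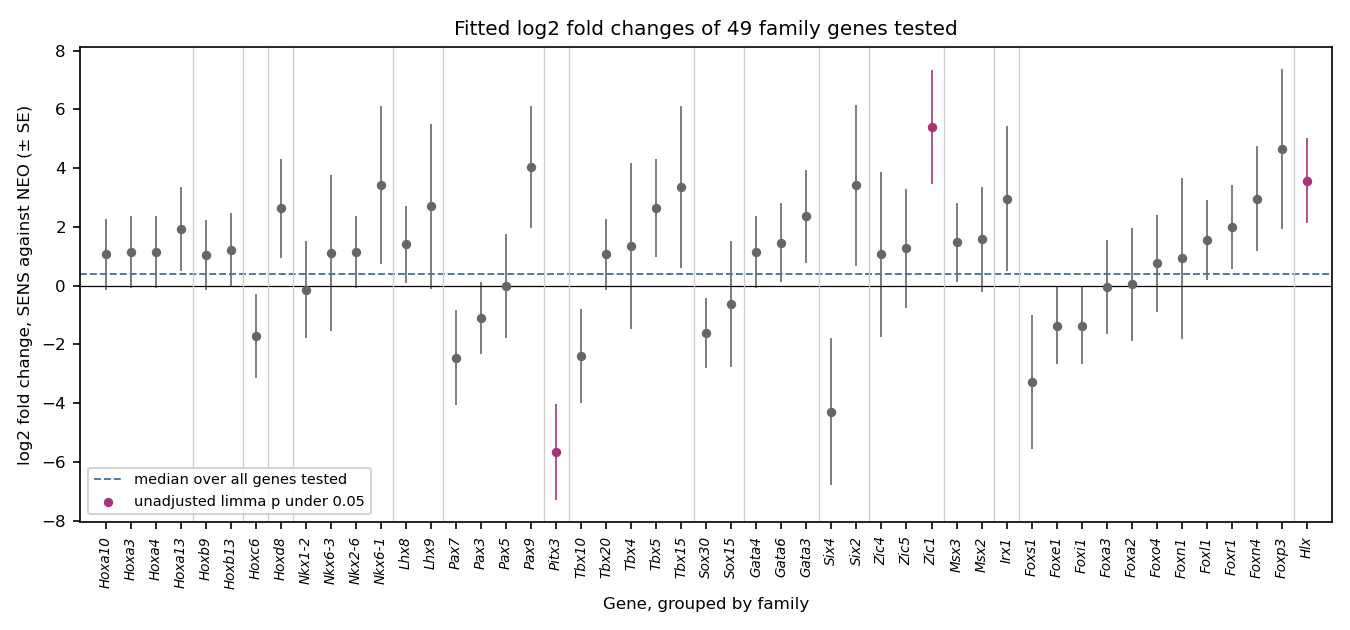
Points are the fitted log2 fold changes of 49 of the 52 genes tested, SENS against NEO, with bars of ± 1 SE; the dashed line is the median of 0.39 over all genes tested. Zic1 and Hlx lie highest relative to their SE and Pitx3 lowest, and none passed at an adjusted p under 0.05.

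Pitx3 was the family gene with the smallest unadjusted p. It encodes a homeodomain protein of lens and midbrain dopamine neurons (chromosome 19, 46135281 to 46148325, GRCm38). Its NEO libraries held 22, 27, 10, 7, 2 and 13 reads (replicates 1 to 6), and its SENS libraries 5, 0, 0, 7, 6 and 0. In CPM the NEO values ran from 289.8 (NEO 5) over a median of 1538 to 2424, and the SENS values from 0 over a median of 249 to 652. All NEO libraries except NEO 5 were above the highest SENS library. The means were 1471 ± 794 and 288 ± 319.6 CPM (SD, n = 6 each), and the fitted log2 change was −5.66 (with SE 1.64 and limma adjusted p = 0.728, unadjusted p = 0.000840). The adjusted p ranged from 0.312 to 1 over the alternatives tried. The label numbers fall into 3 ranges, and the SENS mean was below the NEO mean in each: 580 against 2150 CPM in the range 1046 to 1050 (1 library per group), 217 against 1570 in 1062 to 1074 (3 per group), and 249 against 984 in 1103 to 1116 (2 per group).

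The Zic genes encode zinc finger proteins of dorsal midline, cerebellum and medial forebrain, and all 3 in the table had higher mean CPM in SENS, with SENS 2 holding most of their SENS reads; without SENS 2 the Zic5 mean was below that of NEO. Zic1 (chromosome 9, 91358058 to 91365768) had 0, 5, 2, 0, 0 and 1 reads in NEO and 10, 81, 10, 6, 8 and 1 in SENS. Its NEO values ran from 0 over a median of 64.6 to 449 CPM, and its SENS values from 54.6 over a median of 707 to 5196 CPM. SENS 6, at 54.6 CPM, was the only SENS library within the NEO range. The means were 143 ± 186 and 1397 ± 1895 CPM (SD, n = 6 each), and the fitted log2 change was 5.40 (with SE 1.95 and limma adjusted p = 0.745, unadjusted p = 0.00661). Without SENS 2 the SENS mean was 637.5 ± 398 CPM (n = 5). The adjusted p ranged from 0.682 to 1 over the alternatives tried, and in each label number range the SENS mean was above the NEO mean (1160 against 0, 2168 against 243, and 359.5 against 64.6 CPM).

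Zic4 (chromosome 9, 91365631 to 91389351) had 2, 3, 0, 0, 1 and 0 reads in NEO and 0, 84, 9, 2, 0 and 0 in SENS. SENS 2 thus held 84 of its 95 SENS reads, and 3 SENS libraries had none. The means were 102 ± 118 and 1041 ± 2145 CPM, and 172 ± 292 CPM in SENS without SENS 2 (SD, n = 6 each, or 5). The fit gave a log2 change of 1.08 (with SE 2.81 and limma adjusted p = 0.910). Zic5 (chromosome 14, 122459160 to 122465658) had 19 reads in NEO against 52 in SENS (28.5 in SENS 2), with 347 ± 276 and 561 ± 699 CPM (SD, n = 6 each). Without SENS 2 its SENS mean was 308 ± 359 CPM (n = 5), and its median was 457 CPM in NEO and 218 CPM in SENS, so its direction rested on that library. In 4 libraries its reads were not whole (5.5, 4.5, 1.5 and 28.5), so its values are uncertain.

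Zic1 and Zic4 are neighbours on opposite strands. Their records share 138 bases at their starts. With strand use in counting not given in the sources used here, reads from the shared stretch cannot be assigned. The promoter windows of both are shown because the pair had its highest values in the same library, and that of Pitx3 because it led the genes with lower values. Each window runs from 250 bases before to 50 after the start site (RefSeq, GRCm38.p6), and capitals mark CpG dinucleotides, the sites of DNA methylation. The Zic4 window belongs to a start site 3341 bases inside the record, 3204 bases from the Zic1 start, and not to the outer start of Zic4 that meets Zic1.
Pitx3, chr19:46148276-46148575, minus strand: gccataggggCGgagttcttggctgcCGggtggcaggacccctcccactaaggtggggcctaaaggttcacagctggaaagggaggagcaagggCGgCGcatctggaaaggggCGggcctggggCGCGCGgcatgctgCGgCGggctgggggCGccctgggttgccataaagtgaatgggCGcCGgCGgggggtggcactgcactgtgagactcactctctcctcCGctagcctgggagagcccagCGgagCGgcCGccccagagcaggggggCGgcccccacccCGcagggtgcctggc
Zic1, chr9:91365719-91366018, minus strand: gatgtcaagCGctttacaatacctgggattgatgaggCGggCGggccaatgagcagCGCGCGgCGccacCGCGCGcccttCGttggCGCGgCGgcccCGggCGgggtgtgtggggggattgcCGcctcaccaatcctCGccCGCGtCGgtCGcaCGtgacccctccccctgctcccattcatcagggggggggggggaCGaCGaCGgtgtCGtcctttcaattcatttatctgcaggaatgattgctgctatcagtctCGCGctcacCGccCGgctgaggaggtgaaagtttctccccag
Zic4, chr9:91368722-91369021, plus strand: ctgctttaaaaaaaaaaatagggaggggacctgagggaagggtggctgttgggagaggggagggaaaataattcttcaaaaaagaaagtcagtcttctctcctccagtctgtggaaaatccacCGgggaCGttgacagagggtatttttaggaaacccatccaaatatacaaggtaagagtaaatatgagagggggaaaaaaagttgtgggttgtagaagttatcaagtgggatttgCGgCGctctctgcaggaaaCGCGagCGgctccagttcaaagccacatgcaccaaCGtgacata
The Zic1 window held 31 CpG dinucleotides, the Pitx3 window 20 and the Zic4 window 8. Over the 32851 windows of this length in the reference table the median was 7, and 10.6% held at least as many as Zic1, 26.5% as many as Pitx3 and 48.6% as many as Zic4. These counts describe the sequence alone. Windows were at hand for 41 of the 63 genes, too few for a statement on the families as a whole.

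**Figure D4:**
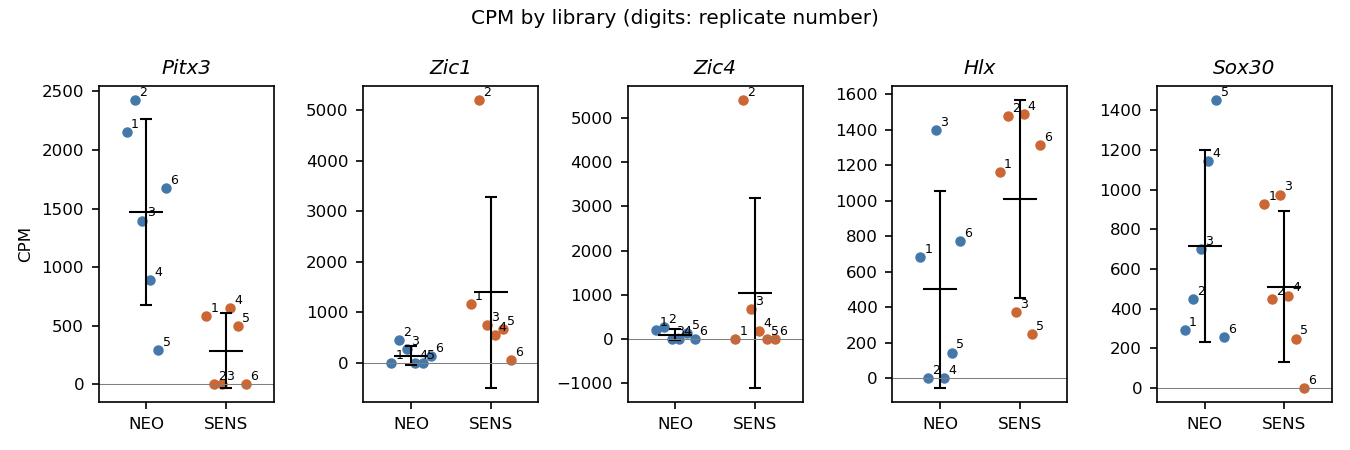
Points are the CPM of 5 genes in each library, numbered by replicate, with bars for mean ± SD (n = 6). SENS 2 stands at 5196 CPM for Zic1 and 5388 CPM for Zic4, far above the other libraries, and 5 of the 6 NEO libraries lie above all SENS libraries for Pitx3.

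Hlx, a homeobox gene of gut and liver mesenchyme and of some blood cells (chromosome 1, 184727143 to 184732493), was above 0 in all 6 SENS libraries and in 4 NEO libraries. Its reads were 7, 0, 10, 0, 1 and 6 in NEO and 10, 23, 5, 16, 3 and 24 in SENS. Its NEO values ran from 0 over a median of 414.5 to 1398 CPM and its SENS values from 249 over a median of 1236 to 1490 CPM. The groups overlapped, with NEO 3 above 4 SENS libraries. The means were 500.3 ± 555 and 1010.2 ± 555 CPM (SD, n = 6 each; fitted log2 change 3.58 with SE 1.44, limma adjusted p = 0.745, and 0.682 to 1 over the alternatives). Of the 13 genes fixed as microglia and blood cell markers the table held 6, with summed values between 391 and 2318 CPM in NEO libraries and between 1090 and 4236 CPM in SENS libraries. Ptprc, the leukocyte antigen CD45, had 22 reads in NEO and 107 in SENS (0 in SENS 6, where Hlx had 24), and Cd52, of lymphocytes, had 37 and 78. These reads are not scaled for the deeper SENS libraries. In the fit Ptprc was higher in SENS (log2 fold change 2.70, SE 1.73) and Cd52 lower (−1.20, SE 1.11). Of the 5 markers tested, 2 were higher and 3 lower, with a median log2 fold change of −1.17. Cd3e had 5 reads in all, the red cell genes Hba-a1 and Slc4a1 had 1 and 2, and Gata1 had none. The part of blood cells in the Hlx values was not tested.

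The Hox clusters held few reads. Of 12 Hox genes in the table, 9 were above 0, with 9 reads in NEO and 25.5 in SENS. All NEO reads were Hoxc6 in NEO 3, at 1258 CPM. Hoxc6 had no read in SENS, and its pooled NEO level was 4.62 times the SENS limit of 3 reads, by that library alone. Hoxd8 had 8 reads in SENS 2 and 2 in SENS 6. Pooling all SENS libraries put Hoxd8 at 2.16 times the NEO limit of 3 reads, but at 0.540 times that limit without SENS 2. Hoxb13, of the tail end of the body, had 3 reads in SENS 6. Hoxa3, Hoxa4, Hoxa10 and Hoxb9 had 1 read each, and Hoxa13 had 1.5.

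Nkx, Lhx, Pax, Msx and Irx genes and the pair Six2 and Six4 had higher mean summed CPM in SENS, and in all of them the groups overlapped. Nkx genes summed to 426 ± 526 CPM in NEO and 872 ± 706 in SENS. Nkx6-1, a regulator of ventral neural tube and pancreatic beta cells, had 5 reads in NEO 6 alone and 9, 25 and 8 in SENS 1, SENS 2 and SENS 3 (108 ± 264 and 541 ± 673 CPM; fitted log2 change 3.43 with SE 2.69, limma adjusted p = 0.745). Without SENS 2 its SENS mean was 329 ± 477 CPM. Nkx6-3, of stomach epithelium, had 14 reads in NEO and 20 in SENS, Nkx1-2 had 2 in each group, and Nkx2-6 had 1 read, in SENS 1.

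Lhx9, a LIM-homeobox gene of gonad and diencephalon (chromosome 1, 138825186 to 138848839), had 4 and 3 reads in NEO 3 and NEO 4 and 1, 6, 2 and 25 in SENS 1 to SENS 4. SENS 4 held 61.0% of its 41 reads. The means were 157 ± 249 and 496.5 ± 908 CPM (SD, n = 6 each; fitted log2 change 2.70 with SE 2.79, limma adjusted p = 0.745). Without SENS 4 its SENS mean was 130 ± 158 CPM (n = 5), below the NEO mean, and the difference in summed Lhx CPM was 43.1 in place of 398. Of the 6 pituitary markers in the table, Prl (52 of 53 reads) and Gh (33 of 36) had most reads in SENS 4. Tshb had 31 reads in SENS 3 and 15 in SENS 4, Lhb was highest in SENS 6 with 21, Fshb had 10 each in NEO 3 and SENS 3, and Pou1f1 stayed under 1 read in every library. The part of pituitary RNA in the Lhx9 value was not tested. Lhx8, needed for cholinergic neurons of the basal forebrain, had 3 reads, all in SENS 1, and Lhx4, a pituitary gene, had none.

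Six4, a muscle and sensory organ gene (chromosome 12, 73099609 to 73114031), was above 0 in 5 NEO libraries and in SENS 2 and SENS 3 only. Its reads were 10, 2, 12.5, 2, 7 and 0 in NEO and 0, 17, 18, 0, 0 and 0 in SENS. The 2 SENS libraries reached 1090 and 1349 CPM, within the NEO range of 0 to 1748. The means were 695.5 ± 668 and 407 ± 635 CPM (SD, n = 6 each; fitted log2 change −4.28 with SE 2.51, limma adjusted p = 0.745). Six2, of kidney progenitors, showed the other sign: 9 reads in NEO 3 alone and 17, 35.3 and 7 in SENS 2, SENS 3 and SENS 4. Together both genes stood at 905 ± 1114 CPM in NEO against 1138 ± 1636 in SENS, and the difference of 233 CPM turned to −339 without SENS 3. Within the label number ranges it was −977, 1130.4 and −507, so its sign turned in 2 of the 3 ranges.

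Pax9, of pharyngeal pouches and teeth (chromosome 12, 56691693 to 56712824), had no read in NEO and 5, 5 and 3 in SENS 2, SENS 3 and SENS 6. The pooled SENS level of these 13 reads was 2.81 times the NEO limit, and 2.085 times that limit without SENS 3. The SENS mean of Pax9 was 143 ± 172 CPM (fitted log2 change 4.04 with SE 2.07, limma adjusted p = 0.745). Pax7, of muscle stem cells and the dorsal brainstem, had 3 and 1 reads in NEO 1 and NEO 2 and none in SENS. Its pooled NEO level was 2.05 times the SENS limit of 3 reads, with most of the reads in NEO 1 (limma adjusted p = 0.745). Pax5 had 4 reads in NEO 2 and 3 in SENS 1, and Pax3 had 1 read.

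Msx2, a homeobox gene of skull and limb downstream of BMP signals (chromosome 13, 53466881 to 53472780), was among the more evenly detected genes, above 0 in 4 NEO and 5 SENS libraries. It had 9, 0, 0, 12, 6 and 3 reads in NEO and 0, 16, 16, 8, 3 and 26 in SENS, with 610 ± 594 and 773.5 ± 555 CPM (SD, n = 6 each; fitted log2 change 1.58 with SE 1.79, limma adjusted p = 0.745). Msx3 had 4 reads, all in SENS 1. Irx1, a patterning gene of lung, heart and neural tube, had 9 reads in 3 NEO libraries and 26 in 5 SENS libraries. Its means were 195 ± 278 and 336 ± 253 CPM (SD, n = 6 each). Irx1 was at 0 in SENS 2, the library with the highest Zic values.

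**Figure D5:**
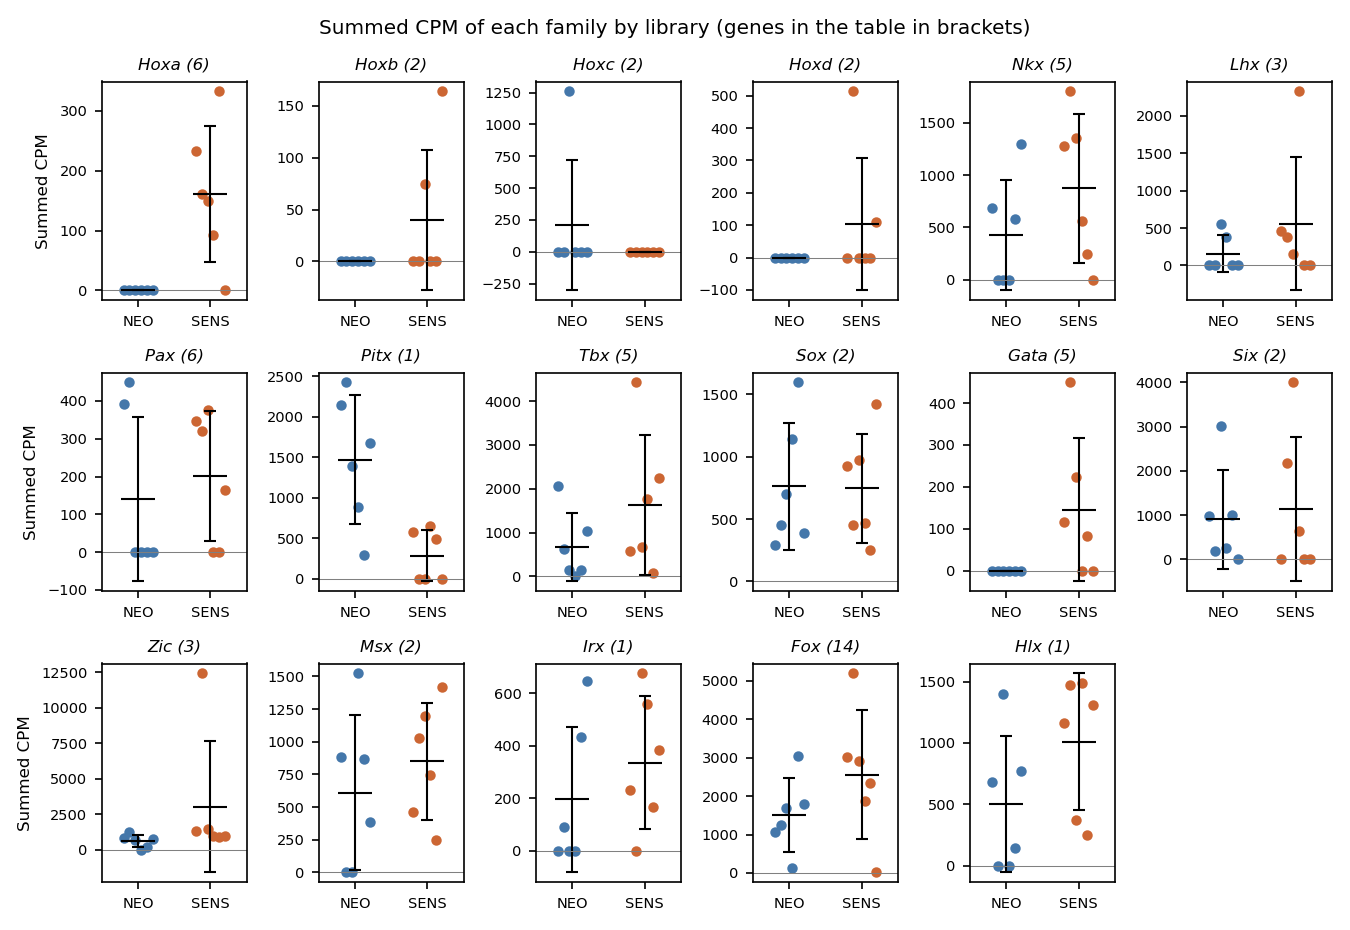
Each panel sums the CPM of a family's genes in each library (points), with bars for mean ± SD (n = 6); scales differ between panels. The panel with 1 gene of Pitx is the one with most NEO points above all SENS points, Hoxa, Hoxb, Hoxd and Gata are at 0 in all NEO libraries, and a SENS 2 point of 12412 CPM sets the Zic mean.

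T-box genes summed to 666 ± 781 CPM in NEO against 1629 ± 1589 in SENS, or 1070 ± 898.5 in SENS without SENS 2. Tbx15, of limb and skin mesenchyme and fat (chromosome 3, 99240348 to 99354260), had 21 reads in NEO 1 alone and 3, 61 and 19 in SENS 1, SENS 2 and SENS 4. The means were 342 ± 838 and 1005 ± 1581 CPM, and 423.5 ± 767 without SENS 2 (fitted log2 change 3.36 with SE 2.77, limma adjusted p = 0.745). Tbx4, of the hindlimb, had 41 of its 66 reads in SENS 6, without which its SENS mean of 505 CPM was 158, below the NEO mean of 277. Tbx5, of heart and forelimb, had 8 reads in SENS 2 and 1 in SENS 1 and none in NEO (at least 1.95-fold higher in SENS, but 0.270 times the NEO limit without SENS 2), and Tbx10 had 1 read in each of 2 NEO libraries and none in SENS. Tbx20 had 1 read.

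Sox30, a gene of spermatid development (chromosome 11, 45979069 to 46017992), was the most evenly spread of all, above 0 in 11 of 12 libraries. Its reads were 3, 5, 5, 9, 10 and 2 in NEO and 8, 7, 13, 5, 3 and 0 in SENS. NEO values ran from 258 over a median of 574 to 1449 CPM and SENS values from 0 over a median of 457 to 975 CPM, so the groups overlapped over most of their range. The means were 715 ± 485.5 and 511 ± 381 CPM (SD, n = 6 each; fitted log2 change −1.62 with SE 1.20, limma adjusted p = 0.745), and without SENS 6 the log2 fold change was −0.10. Sox15 had 1 read in each of 2 NEO libraries and 26 in SENS 6, with none in the other SENS libraries.

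Gata genes, regulators of blood, endoderm and some midbrain neurons, had no read in NEO and 12 in SENS. Gata6 had 7, all in SENS 2, and a pooled SENS level of 1.52 times the NEO limit, by that library alone. Gata3 had 3 reads in SENS 3 and 1 in SENS 5, 0.866 times the NEO limit, so no difference was detectable at this depth. Gata4 had 1 read and Gata1 and Gata5 none.

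Fox genes were the largest family, with 14 in the table and 12 tested, 8 with values above and 4 below 0 in the fit (median log2 fold change 0.85). Summed, they reached 1498 ± 963 CPM in NEO against 2562 ± 1691 in SENS (SD, n = 6 each), with SENS 2 highest at 5196 and SENS 6 lowest at 10.9. Foxo4, a stress and insulin-signal responsive factor (chromosome X, 101254261 to 101260873), was above 0 in 5 libraries of each group, with 3, 3, 4, 1, 6 and 0 reads in NEO and 3, 12, 6, 14, 9 and 0 in SENS. Its means were 353 ± 315 and 603 ± 445 CPM (fitted log2 change 0.76 with SE 1.65, limma adjusted p = 0.877), and the sign turned without NEO 6 (−0.64).

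Foxs1, of pericytes and sensory ganglia (chromosome 2, 152931898 to 152933208), had 8, 11, 4, 0, 2 and 6 reads in NEO and 1, 23, 9, 0, 0 and 0 in SENS. The means were 565.5 ± 364.5 and 378 ± 598 CPM (fitted log2 change −3.28 with SE 2.27, limma adjusted p = 0.745), and 158 ± 293 CPM in SENS without SENS 2. Foxp3, of regulatory T cells, had 2 reads in NEO 6 and 20, 5, 3 and 6 in SENS 2 to SENS 5 (log2 fold change 4.66, SE 2.73). Its limma adjusted p was 0.745, and SENS 2 was its highest library. The T cell marker Cd3e had 4 of its 5 reads in SENS 2, but of the more abundant blood cell markers Ptprc had 9 of its 107 SENS reads there and Cd52 had 4 of 78; their part in the Foxp3 value was not tested.

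The remaining Fox genes each rested on few libraries. Foxn4, of retina and spinal interneurons, had 18 reads in SENS 3 and 2 in SENS 5 and none in NEO (at least 4.33-fold higher in SENS, but 0.521 times the NEO limit without SENS 3; fitted log2 change 2.96 with SE 1.79, limma adjusted p = 0.745). Foxl1, of gut mesenchyme, had 10 reads, all in SENS 2 (pooled SENS level 2.16 times the NEO limit, by that library alone). Foxa2, of floor plate, endoderm and midbrain dopamine neurons, had 6 reads in NEO 6 and 8 in SENS 1, and its log2 fold change of 0.04 (SE 1.91) turned with the library left out. Foxn1, the thymus epithelium regulator, had 8 reads in NEO against 12 in SENS (9 in SENS 1), and without SENS 1 its SENS mean was 52.2 CPM against 191 in NEO. Foxe1 and Foxi1 had 2 reads each in NEO 5, Foxa3 had 1 in each group, and Foxr1 had only fractional reads, 0.2 in each of 3 SENS libraries.

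SENS 2 stood apart in these families. The summed CPM of all 63 genes ran from 4312 (NEO 4) to 10837 (NEO 3) in NEO, and from 5415 (SENS 5) to 14569 (SENS 3) in SENS apart from SENS 2, which reached 30790. The group means were 8130 ± 2355 and 13640 ± 8977 CPM (SD, n = 6 each), and 10210 ± 3533 in SENS without SENS 2 (n = 5). SENS 2 was the highest library for 10 of the 26 family genes with at least 10 reads (38.5%), against 12.8% of all genes with as many. Among the 24 genes fixed as markers of neighbouring forebrain regions the table held 9, of which 6 belong to these families; of the others, Gbx2, of thalamus, had 27 of its 53 SENS reads in SENS 2, while Emx1 had none there and Tal1 had 3 of 64. Of the 13 vascular and meningeal markers the table held Zic1 alone, so that cell type could not be checked.

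SENS 1 differed in another way: 7 family genes had reads in SENS 1 alone (among them Gata4, Hoxa3, Hoxa4, Lhx8, Msx3 and Nkx2-6), between 1 and 4 each. They were 13.5% of the 52 genes above 0. Over all genes 5.97% were found in SENS 1 alone, more than in any other single library (at most 2.57%, SENS 3). The fit gave each of these 7 genes a log2 fold change above 1, so they add to the count of genes with higher values; without SENS 1, 30 of 45 family genes tested were higher (66.7%), against 55.9% of all genes.

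Other developmental regulators outside these families were taken from a fixed list of 164 genes. The table held 67, of which 61 were tested, and limma called 0. At an unadjusted limma p under 0.05 there were 2 with higher values in SENS and 1 with lower, and 36 of 61 were above 0 in the fit (median log2 fold change 0.37). Over all genes tested, 3.68% were at such a p and 57.0% were above 0 (median 0.39), so these counts were near those of the whole table. Tcf21, a mesenchymal regulator, had no read in NEO and 1, 7, 3 and 1 in SENS 2, SENS 3, SENS 4 and SENS 6 (log2 fold change 4.83, SE 2.25). Runx3, of T cells and sensory neurons, had none in NEO against 8.58 in SENS (6 in SENS 4). Runx2, of bone, had 10, 22, 7, 1, 7 and 4 reads in NEO and 0, 2, 6, 6, 6 and 3 in SENS, with 931 ± 620 and 299.8 ± 231 CPM (SD, n = 6 each; log2 fold change −2.59, SE 1.26). Tlx3, of spinal and hindbrain sensory neurons, had 5 reads in 2 NEO libraries and none in SENS. Each of these 4 had a limma adjusted p = 0.745.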

How the data were processed

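RNA pulled down with tagged ribosomes was measured in 12 libraries, 6 NEO and 6 SENS, grouped by the sample titles. The deposited table holds CPM values for 5764 genes; each column sums to between 999936 and 1000000, so CPM are relative to the reads in this table and not to the whole library, whose depth is unknown. Per the submitters' processing notes, the tools were FastQC, HISAT2, featureCounts and edgeR and the builds GRCm38 and mm10. Not given in the sources used here were their roles and versions, the filter on genes, the use of strand and the sharing of reads.

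Reads were recovered by taking the most frequent value above 0 in a column as 1 read. Whole reads (tolerance 0.005) made up 81.2% of all values above 0 and 94.8% of those of the family genes; since too few of all values were whole, no count model was fitted. Limma 3.58.1 in R 4.3.3 (variance trend, no covariate, two-sided) was fitted on log2(CPM + 1) for the 5141 genes whose mean reached 1 CPM, with Benjamini-Hochberg adjustment over all of them. The fit and the permutation test were tested on simulated data. Family sums and counts of genes were described without a test. The count at 6000 reads is the hypergeometric expectation.

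Named were, in each direction, the 8 family genes of smallest unadjusted p, the gene of highest mean CPM in each family, genes known from hypothalamus, pituitary, their neighbours or glia, genes with no read in one group and at least 5 in the other, and 2 other regulators per direction; the remaining family genes are given by their reads, except a few that are not reported here and are left out of the plots of single genes but kept in all fits, counts and sums. The genes and lists were chosen with earlier results of these data known. Coordinates and promoter windows come from RefSeq (GRCm38.p6), which held all 63 symbols. The alternatives varied pseudocount, filter, variance trend, scaling, blocks, test and libraries.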

Additional observations from a re-analysis of the deposited data

Results flagged for a closer look

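In groups of 6 libraries, the gap between the highest library and the next was a larger share of the group's range than Dixon's critical value in 25 of 75 groups of values. Chance flags about 1 in 20 groups of values with a normal spread, and a gene with reads in only 1 library of a group always meets this mark.

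SENS 2 was the high library in 8 of these: at 5196 CPM for Zic1, 12412 for the Zic genes together, 641.5 for Foxl1, 449 for Gata6, 513 for Hoxd8 and so for the Hoxd genes, 513 for Tbx5, and 30790 for all family genes together. SENS 4 was high for Lhx9 and so for the Lhx genes (2328 CPM) and for Runx3 (559 CPM). SENS 1 stood out for Foxa2 (928 CPM) and Lhx8 (348 CPM), SENS 3 for Foxn4 (1349.5 CPM) and Gata3 (225 CPM), and SENS 6 for Hoxb13 (164 CPM).

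Among NEO libraries, NEO 3 was high for Hoxc6 and so for the Hoxc genes (1258.5 CPM) and for Six2 and Six4 together (3006.5 CPM). NEO 1 was high for Tbx15 (2052 CPM) and Pax7 (293 CPM), NEO 5 for Foxe1 (289.8 CPM), and NEO 6 for Foxa2 (775 CPM), Nkx6-1 (646 CPM) and Foxp3 (258 CPM).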

How the results depend on the processing

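No family gene passed at an adjusted p under 0.05 under any alternative run, and 0 of all genes did. For the exact permutation test this was nearly fixed in advance by the floor under its p. The number of family genes at an unadjusted p under 0.05, 3 in all libraries, was 5 without a variance trend (9.62%, against 4.84% of all genes) and between 3 and 7 with 1 library left out (7 without SENS 1, or 15.6% against 3.95%, and 5 without NEO 6, SENS 4 or SENS 6); Zic1 and Pitx3 were among them in all 24 alternatives and Hlx in 18. The median log2 fold change of the family genes tested lay between 1.14 and 1.52 with 1 library left out, above that of all genes in each case. The log2 fold change of Foxa2 turned sign, between −1.60 and 1.64, without SENS 1 (−1.60) or without each NEO library other than NEO 6 (−0.28), and that of Foxo4, between −0.64 and 2.32, without NEO 6 (−0.64). The difference in summed CPM, SENS minus NEO, was 1235 for Nkx within label numbers 1062 to 1074, and −811 for Nkx, −266 for Irx and −1249 for Fox within 1103 to 1116. Within 1046 to 1050, with 1 library per group, it was −1472 for Tbx, 635 for Sox and −415 for Msx. For Six2 and Six4 together it was −977, 1130.4 and −507 in the 3 ranges, against 233 over all libraries. The Zic difference of 2409 CPM was 526 without SENS 2, and of 17 family genes with NEO reads and a higher SENS mean, 6 (Foxa2, Foxn1, Lhx9, Sox15, Tbx4 and Zic5) had a lower one without their highest SENS library, whose removal can only lower the mean. The replicate numbers did not pair the libraries (correlations of same-numbered deviations between −0.03 and 0.08; 1 of 6 NEO libraries correlated best with its own number), and with a replicate block 3 family genes were at an unadjusted p under 0.05, Pax9 in place of Hlx, with 0 called. The fits without both SENS 2 and SENS 6, and the means without a gene's highest library, were chosen after the data were seen. With 1 read worth at least 54.6 CPM, differences of a few reads could not be detected.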

Other observations

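The families found differed from library to library. SENS 6 had no read of Lhx, Gata or Nkx genes, Six2 or Six4 and 0.2 reads of Fox genes, yet held 41 reads of Tbx4, 26 each of Sox15 and Msx2 and 24 of Hlx. SENS 5, by contrast, had 28.2 reads of Fox genes and at most 11 of any other family. Family genes took 0.808% of the reads of the table in NEO and 1.42% in SENS, and 3.08% in SENS 2.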
